A study of Mus musculus with 31 samples.

Results

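Tcirg1 encodes the a3 form of the a subunit of the vacuolar proton pump. It was measured by 1 of the 23040 probes on the arrays, the only probe whose single gene name in the platform table was Tcirg1 (gene number 27060, mouse chromosome 19). The gene was chosen because its log2 ratio lay below 0 in every strain, so its low level is given here as a description and carries no test. Of the genes that a probe named singly, it is 1 of 15096. RNA of 31 BXD strains was hybridized with 1 array for each strain. BXD strains are inbred lines from crosses of C57BL/6J with DBA/2J, and each line carries at every locus the allele of one of these parents in both copies. Each strain's sample pooled the RNA of 3 males at 8 weeks of age and carried the red dye. In the green channel each array had one common reference, RNA of C57BL/6J males of that age, with no dye swap. Since a strain is 1 pool on 1 array, its own effect and that of the array cannot be separated. Nor can a difference shared by all strains be told apart from a dye effect of the probe or a trait of the reference.

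The vacuolar proton pump has a membrane sector, V0, that carries protons, and a cytosolic sector, V1, that splits ATP to drive them. It acidifies lysosomes and endosomes, and in the kidney it also sits at the surface of intercalated cells, some of which secrete acid into the urine. The a subunit of V0 exists in several forms. The a3 form is known above all from osteoclasts, the bone-resorbing cells, whose acid secretion fails when Tcirg1 is lost, and a shorter product of the gene is known from T lymphocytes under the name TIRC7. RefSeq lists 3 curated transcripts of Tcirg1, and 1 probe cannot tell them apart where they share its sequence. A bulk ratio also cannot tell fewer cells of a type from less RNA per cell.

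Each value is a log2 ratio, most likely of strain over C57BL/6J. This reading follows the dyes and the red over green convention of the limma software, while the labels state neither the base nor the direction. "Lower" and "higher" below rest on it, and they name the measured ratio to the C57BL/6J reference in fixed dyes. Titles name kidney and source fields name whole brain. A ratio of like tissues gives no level of a marker gene, so the tissue could not be checked. The sorted values were the same on all 31 arrays, with a median of 0.0127 and an SD of 0.602. BXD15 and BXD38 stood apart, with median correlations with the other arrays of 0.188 and 0.159, against at least 0.263 for every other array. Correlations with Tcirg1 over strains are therefore also given without them.

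The Tcirg1 ratio averaged -1.49 ± 0.637 (SD, n = 31 strains), with a standard error of 0.109 from the limma fit. This mean is 2.81-fold below the reference, and any dye effect of the probe is part of it. The lowest values were -2.63 in BXD5, -2.43 in BXD19, -2.42 in BXD34, -2.24 in BXD40, -2.16 in BXD6, -2.07 in BXD1 and -2.02 in BXD16. These 7 strains, from all parts of the panel, were the only ones below -2. The next were BXD29 at -1.97, BXD31 and BXD39 at -1.92 each, BXD33 at -1.75, BXD23 at -1.74 and BXD21 at -1.61. In the middle lay BXD27 at -1.53, BXD28 at -1.52, BXD22 at -1.50, BXD12 at -1.48, BXD24 at -1.47, BXD18 at -1.46, BXD2 at -1.43 and BXD9 at -1.42. Many strains thus crowded around the median of -1.50. Above them came BXD11 at -1.23, BXD32 at -1.13, BXD20 at -1.07 and BXD14 at -1.02. The 6 strains above -1 were BXD13 at -0.87, BXD36 at -0.74, BXD8 at -0.62, BXD42 at -0.47, BXD15 at -0.32 and BXD38 at -0.07. The value of BXD38 was close to that of the reference, and BXD15 and BXD38 are the arrays that stood apart.

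**Figure D1:**
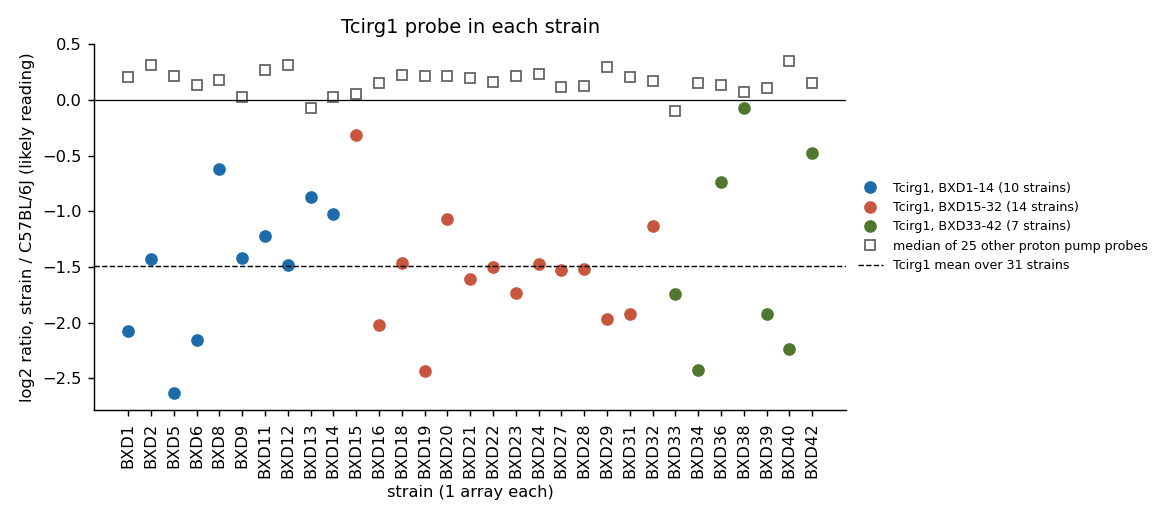
Log2 ratio of the Tcirg1 probe in each of 31 strains (filled points, coloured by range of strain numbers) and the median of 25 other proton pump probes on the same array (open squares), 1 array for each strain; the dashed line is the Tcirg1 mean of -1.49. All Tcirg1 points lie below 0, from -2.63 in BXD5 to -0.07 in BXD38, while the pump medians lie between -0.10 and 0.35.

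No strain had a second array, so the order of the strains has no error of its own. Spots named Gapdh, a glycolytic gene printed 232 times, give a rough scale for it. The signal of the Tcirg1 spot is unknown, so its error may differ from that of the Gapdh spots. After the mean of each spot over strains was removed, these spots had an SD within an array of 0.360 to 0.894, with a median of 0.487. All 30 steps from one strain to the next in the order of Tcirg1 values were smaller than that median, and the widest was 0.250, between BXD15 and BXD38. Steps between sorted values of this many strains are small in any case, so their size does not tell whether strains differ. The SD of Tcirg1 over strains, 0.637, was above the median over all probes of 0.374, and 86.9% of probes had a smaller one.

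Strain values of Tcirg1 stood no further apart into 2 levels than those of a typical probe. The best split, with 21 strains up to -1.42 and 10 from -1.23, removed 65.9% of the sum of squares, against a median of 64.5% over all probes, and 56.6% of probes had a smaller share than Tcirg1.

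Among all probes Tcirg1 had the 16th lowest mean. Only 88 probes, 0.382%, were below 0 in all 31 strains, and of these Tcirg1 had the third lowest mean. On a single array its ratio was lower than all but a median of 1.69% of probes, with extremes of 0.0738% in BXD5 and 41.9% in BXD38. It was in the lowest 1% of probes in 12 strains, in the lowest 5% in 25 and in the lowest 10% in 27. The probe ranked directly below it was Rab3gap1, a gene for a regulator of vesicle release, at -1.51 ± 0.917 (SD, n = 31), which reached 0.07 in its highest strain. The probe ranked directly above had no gene name, a mean of -1.48 and an SD of 1.70. Both of these probes varied more between strains than Tcirg1 did.

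The level of Tcirg1 was then set between the breeding sets of the panel, a comparison that the choice of the gene did not use. The strains BXD1-32 come from an earlier and BXD33-42 from a later breeding, which is background knowledge and not in the labels. The mean was -1.53 ± 0.546 (SD, n = 24) in BXD1-32 and -1.37 ± 0.931 (SD, n = 7) in BXD33-42. The ranges overlapped almost in full, since BXD33-42 ran from -2.42 to -0.07 and BXD1-32 from -2.63 to -0.32. The difference of 0.15 was smaller than the spread within either set (limma, 95% interval -0.38 to 0.69, adjusted p = 0.859; 2-sided exact permutation p = 0.586). In this comparison 0.00868% of all probes passed. Without BXD38 the difference was -0.065, so its direction rested on that array. Within the first set, BXD1-14 had a mean of -1.49 ± 0.627 (SD, n = 10) and BXD15-32 of -1.55 ± 0.504 (SD, n = 14).

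The spots next to Tcirg1 by feature number were not low. Feature numbers were taken as a guide to the printing order, which was not checked against a print layout. Over all probes, the mean ratio of a spot correlated with that of the next number at 0.383. With that of the spot 480 features away it correlated at 0.344, a description across spots. The 4 features before Tcirg1 were Ifi47 at 0.14, Aup1 at 0.34, Parg at 0.32 and Nat8f2 at 0.19. The 4 after it were Dmbt1 at -0.00, Cr1l at 0.19, an unnamed probe at 0.70 and Serpinb3a at 0.12. Tcirg1 thus lay more than 1 log2 unit below each of these 8 neighbours. Of the 12 features on each side none had a mean below -1, and their lowest was Usp7 at -0.72. The correlations of the 8 neighbours with Tcirg1 over strains ran from -0.162 to 0.233, and those of all 24 up to 0.562, for Usp7. The range over the 8 was -0.0739 to 0.342 without BXD15 and BXD38, and the highest of the 24 was then 0.50. At the same place in the other 47 repeats of 480 features the median of the means was 0.00, and 1 probe, which had no gene name, was below -1. The 12 spots at this place and beside it in the 2 repeats before and the 2 after had a median of -0.23, with 8 below 0 and the lowest, the actin gene Acta1, at -1.04. Removing the median of each place on each array left the Tcirg1 mean at -1.53 and 30 of 31 strains below 0, the highest at 0.17.

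**Figure D2:**
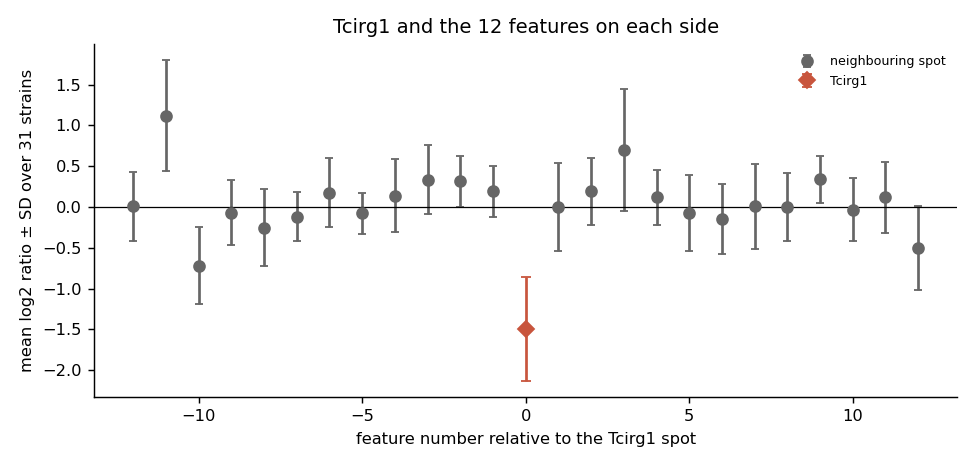
Mean log2 ratio over 31 strains (points) with the SD over strains (bars) for Tcirg1 and the 12 features numbered before and after it, by feature number relative to Tcirg1. Tcirg1 is at -1.49 and the lowest neighbour, Usp7, at -0.72.

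Other genes of the proton pump had ratios near or above 0. Of 35 pump genes listed, 25 were measured besides Tcirg1, each by 1 probe, and their median of the mean ratio was 0.15, against -0.02 over all probes. Of these 25 probes 14 were higher than the reference and 0 lower (limma, Benjamini-Hochberg adjusted p below 0.05). Over all probes 57.5% passed, 27.2% as higher and 30.3% as lower, so that 56% of pump probes stood beside a background of 27.2% for the higher direction. None of the 25 had a mean below -0.21. The count of 0 lower depended on the scaling: with each array centred on its median, Atp6v1a and Ccdc115 were lower at -0.20 and -0.16, and with spot position removed or with array weights Atp6v0a1 and Atp6v1a were. Without BXD15 and BXD38 the counts were again 14 higher and 0 lower.

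The other forms of the a subunit did not share the level of Tcirg1. Atp6v0a1, the a1 form, ran from -0.96 in BXD27 over a median of -0.11 to 0.46 in BXD15, and its mean of -0.10 ± 0.0583 (SE, n = 31) did not pass (adjusted p = 0.141). Atp6v0a2, the a2 form of endosomes and the Golgi, was higher at 0.31 ± 0.0506 (adjusted p = 4.43e-06) and above 0 in 26 of 31 strains. Its range, from -0.42 in BXD15 to 0.65 in BXD24, met that of Tcirg1 only at its lower end. Atp6v0a4, the a4 form of kidney intercalated cells, had the widest spread of the 4 genes. It was at -2.36 in BXD8, -2.30 in BXD28, -2.09 in BXD13, -1.55 in BXD9 and -1.47 in BXD11, and between -0.52 and 0.81 in the other 26 strains. This split, chosen for mention after its values were seen, removed 81.1% of the sum of squares, and 98.7% of probes had a smaller share. Its mean of -0.21 ± 0.147 (SE, n = 31) did not pass (adjusted p = 0.225). In the 5 strains low for Atp6v0a4, Tcirg1 had a mean of -1.13 ± 0.377 (SD, n = 5), and in the others of -1.56 ± 0.658 (SD, n = 26). These groups were defined from the data, so this difference was not tested.

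Among the other V0 subunits, Atp6v0b, part of the proton-carrying ring, was the highest pump gene at 0.81 ± 0.0850 (adjusted p = 1.33e-09) and above 0 in 31 of 31 strains, from 0.19 in BXD16 to 2.38 in BXD12. The connecting subunit Atp6v0d1 (0.24 ± 0.0525) and the small membrane subunit Atp6v0e2 (0.26 ± 0.0878) were higher too, while Atp6v0e (0.05 ± 0.0956, adjusted p = 0.661) did not pass. Thus 4 of 7 measured V0 genes were higher, 57.1% against 27.2% over all probes.

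In the V1 sector 8 of 10 genes were higher, 80% against 27.2% over all probes. Atp6v1g1, part of a stalk that holds the sectors together, led at 0.52 ± 0.0653 (adjusted p = 4.29e-08), with 28 of 31 strains above 0. The regulatory subunit Atp6v1h stood at 0.29 ± 0.0755, and the B subunits Atp6v1b1, the form of intercalated cells, and Atp6v1b2, the widespread form, at 0.26 ± 0.0622 and 0.23 ± 0.0503. Further higher genes were the stalk subunits Atp6v1g2 (0.24), Atp6v1e1 (0.22), Atp6v1e2 (0.20) and Atp6v1c1 (0.11). The catalytic subunit Atp6v1a was at -0.19 ± 0.0843 (adjusted p = 0.0503) and Atp6v1d at 0.08 ± 0.0552 (adjusted p = 0.241). Of 8 accessory and assembly genes, Vma21 (0.20 ± 0.0629), an assembly factor, and Atp6ap2 (0.12 ± 0.0403), also known as the prorenin receptor, were higher, and 6 did not pass. The share higher among these 8 was 25%, near the 27.2% of all probes.

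**Figure D3:**
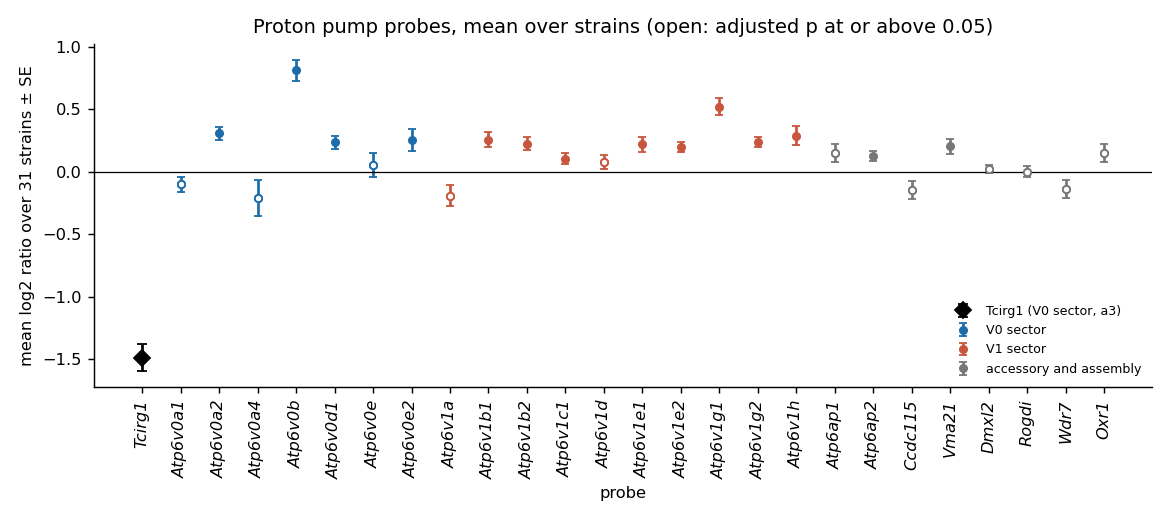
Mean log2 ratio over 31 strains with its SE from limma for Tcirg1 (diamond) and 25 other proton pump probes, grouped by sector; open circles did not pass an adjusted p of 0.05. Tcirg1 is at -1.49, and the other probes lie between -0.21 for Atp6v0a4 and 0.81 for Atp6v0b.

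Array by array, Tcirg1 was below the median of the 25 pump probes in 31 of 31 strains. This count follows largely from the choice of a gene below 0 in every strain and is a description. That median ran from -0.10 in BXD33 to 0.35 in BXD40. In 23 strains Tcirg1 was below every one of the 25. The 8 others were BXD8, BXD9, BXD11, BXD13, BXD15, BXD28, BXD38 and BXD42. In BXD9, BXD13 and BXD28 Atp6v0a4 alone was lower, and in BXD38, where Tcirg1 was almost at the reference level, 9 pump probes were lower.

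Covariation over strains was tested next. The choice of Tcirg1 used its level and not its variation. Probes with low means tended to run with Tcirg1, as given below, so the test is not fully free of that choice. Each probe was regressed on the Tcirg1 value of the strain, and 52 of 23039 probes passed (limma, adjusted p below 0.05), 0.226%, of which 23 (0.0998%) ran with Tcirg1 and 29 (0.126%) against it. Of the 25 pump probes 1 passed. This was Atp6v0e, a small V0 subunit in the same membrane sector, which ran against Tcirg1 (Pearson r = -0.647, permutation p = 1.2e-04; Spearman rho = -0.654, permutation p = 1.4e-04; adjusted p over all probes = 0.0357). Atp6v0e was at -1.43 in BXD11, -1.06 in BXD9, -0.82 in BXD15, -0.76 in BXD42, -0.71 in BXD38 and -0.65 in BXD8. These 6 strains were among the 11 highest for Tcirg1. Its highest value was 0.75, in BXD5, where Tcirg1 was lowest. Within BXD1-14, BXD15-32 and BXD33-42 the correlations were -0.568, -0.653 and -0.853 (n = 10, 14 and 7 strains). Without BXD15 and BXD38, the strains farthest from the Tcirg1 median, r was -0.563 and the adjusted p 0.217. The call of Atp6v0e was lost on leaving out BXD15 alone (adjusted p = 0.0952) or BXD38 alone (adjusted p = 0.0946), and with spot position removed (adjusted p = 0.0862), array weights (0.0747) or ranks (0.0607). Its direction was the same in all 14 alternatives tried, and it passed in 5 of them. Among those 5, array centring gave the same slope and adjusted p as the main fit. Robust eBayes and the filter on the probes of smallest SD kept the same slope. The others were removal of the first component (adjusted p = 0.0329, limma) and the range of strain numbers as a covariate (adjusted p = 0.0355, limma).

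Next among the pump genes came Atp6v1b1 (r = -0.524, and -0.453 without BXD15 and BXD38, Spearman rho = -0.458, adjusted p over all probes = 0.103) and Atp6v1h (r = -0.434, Spearman rho = -0.390, adjusted p over all probes = 0.175), which did not pass. The correlation of Atp6v1h was -0.191 without BXD15 and BXD38. The other a subunits had correlations of 0.320 for Atp6v0a1, -0.214 for Atp6v0a2 and -0.210 for Atp6v0a4, with adjusted p over all probes of 0.356, 0.581 and 0.544 (limma). Their correlations were 0.178, 0.0279 and -0.342 without BXD15 and BXD38, so that the sign for Atp6v0a2 turned. For Atp6v0a4 the correlation was -0.761 within BXD1-14, -0.0925 within BXD15-32 and 0.769 within BXD33-42, so its sign differed between ranges of strain numbers. Of the 25 correlations 10 were positive and 15 negative, with a median of -0.0922 (-0.0752 without BXD15 and BXD38), against -0.00441 over all probes. No pump probe was called as running with Tcirg1.

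**Figure D4:**
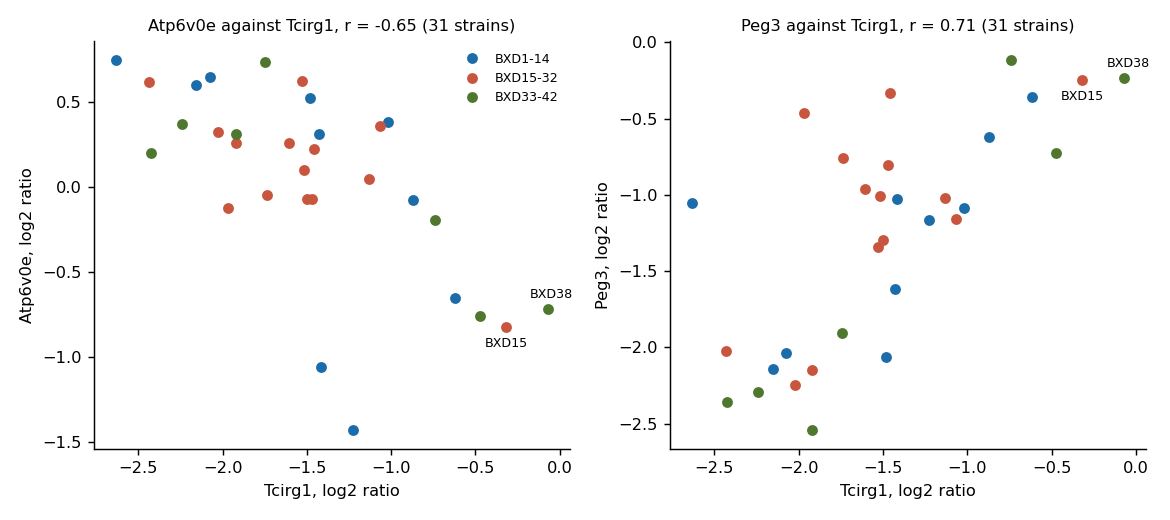
Log2 ratios of Atp6v0e (left) and Peg3 (right) against Tcirg1 in 31 strains, 1 point for each strain, coloured by range of strain numbers, with BXD15 and BXD38 marked. Atp6v0e falls and Peg3 rises along the Tcirg1 axis (r = -0.65 and 0.71), and the marked arrays lie at the upper end of the Tcirg1 range.

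The named probe most like Tcirg1 over the 31 strains was Peg3, an imprinted zinc-finger gene, with r = 0.708 (Spearman rho = 0.690, adjusted p = 0.0275) and 0.650 without BXD15 and BXD38. Peg3 was itself low, with a mean of -1.26 and a range from -2.54 in BXD39 to -0.11 in BXD36. It was followed by Gprc2a-rs4 (r = 0.692), the seminal vesicle gene Svs2 (0.691), the glucose transporter gene Slc2a1 (0.691), the kinase gene Dstyk (0.681) and Tsix (0.666), the antisense transcript of the Xist locus. All 6 had means below 0, from -1.26 to -0.41. The strongest opposite patterns were those of 2310022B05Rik (r = -0.733), Wdr43 (-0.724), Gdf3 (-0.707), the protocadherin gene Pcdh7 (-0.686), Jund (-0.685), which encodes an AP-1 factor, and Onecut1 (-0.676), which encodes a homeobox factor. Their means lay between -0.30 and 0.28. Without BXD15 and BXD38 these 12 correlations ran in size from 0.527 to 0.691, and 0 of the 12 genes passed. In that fit 0 of all probes passed and 2590 had an unadjusted p below 0.05 (limma), and 0 passed on leaving out either array alone.

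Probes with low means tended to run with Tcirg1. All 23 probes called as running with it had a mean below 0, against 52.8% of all probes. Of 178 other probes with a mean below -1, 94.9% correlated positively with Tcirg1, with a median of 0.363, while of 468 probes with a mean above 1 it was 38.9%, with a median of -0.0891. Without BXD15 and BXD38 these shares were 77.5% and 38.9%. The median of the 178 low probes on each array ran from -1.67 in BXD12 to 0.11 in BXD38, and the second highest was BXD15 at -0.14, then BXD36 at -0.59 and BXD42 at -0.72. BXD38, BXD15 and BXD42 were also the 3 highest arrays for Tcirg1. Tcirg1 correlated with that median at r = 0.683 (permutation p = 3e-05, adjusted over the 2 such medians to 6e-05) and Spearman rho = 0.538 (permutation p = 0.00228, adjusted to 0.00456), and at 0.494 without BXD15 and BXD38. Within BXD1-14 the correlation was 0.170, within BXD15-32 0.821 and within BXD33-42 0.888. With the median of the 468 high probes r was -0.308 (permutation p = 0.0933) and Spearman rho -0.411 (permutation p = 0.0226), and r was -0.196 without BXD15 and BXD38. Tcirg1 and the 178 low probes were both chosen for low means on these same arrays, and all arrays hold the same set of values. Some of their correlation can follow from that choice, and its p-values do not allow for it. The part of this shared movement of low probes in the differences of Tcirg1 between strains was not tested.

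**Figure D5:**
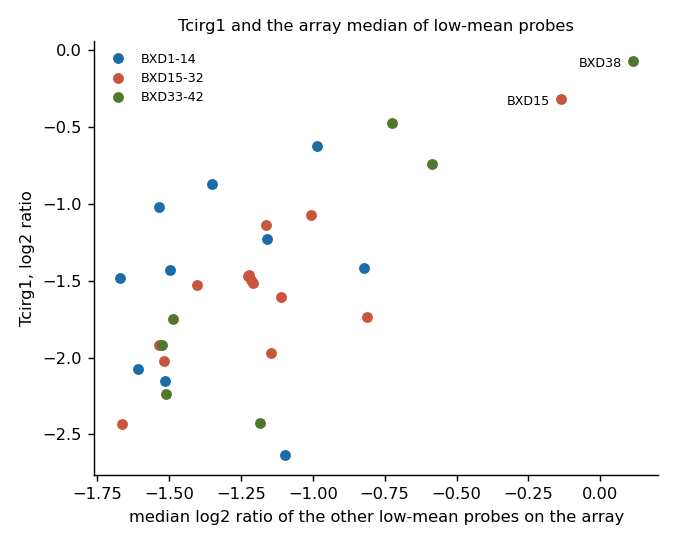
Tcirg1 log2 ratio against the median log2 ratio of the 178 other probes with a mean below -1 on the same array, 1 point for each of 31 strains, coloured by range of strain numbers, with BXD15 and BXD38 marked. BXD38 and BXD15 are highest on both axes, and the correlation is 0.683 with them and 0.494 without.

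The 3 leading components of variation between arrays held 20.6%, 11.3% and 9.34% of the variance. Tcirg1 correlated with the first at 0.248 (Spearman rho = 0.164, permutation p = 0.18), with the second at 0.345 (Spearman rho = 0.233, permutation p = 0.0579) and with the third at 0.513 in size (Spearman rho = 0.561, permutation p = 0.00305 for r and 0.00114 for rho). In size these were 0.152, 0.166 and 0.573 without BXD15 and BXD38. These belong to 40 relations computed together with the pump genes and the 12 named genes. Adjusted over the 40, the p of the third component was 0.00813. The 12 named genes were chosen for their correlations with Tcirg1, and their small p-values make this adjusted p smaller than it would be without them.

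Genes that work beside a3 in osteoclasts were mixed. Of 6 measured partners in acid secretion, the lysosomal small GTPase gene Rab7 (0.61 ± 0.0967) and Ostm1 (0.26 ± 0.0701), the partner of the chloride exchanger, were higher and the sorting nexin gene Snx10 (-0.20 ± 0.0536) lower, while the exchanger gene Clcn7 stood at -0.08 ± 0.166 (adjusted p = 0.697). The shares of the 6 were 33.3% higher and 16.7% lower, against 27.2% and 30.3% over all probes. Of 17 probes of osteoclast genes 4 were higher and 7 lower, 23.5% and 41.2%, against 27.2% and 30.3% over all probes. Among them were the kinase gene Src at 1.17 ± 0.145, the tartrate-resistant phosphatase gene Acp5 at 0.59 ± 0.124 and the integrin gene Itgb3 at -0.39 ± 0.143. The transcription factor gene Mitf alone gave 4 of the 7 lower probes, and the 2 probes of Traf6 disagreed, at -0.42 and 0.46. None of these 23 probes passed for covariation with Tcirg1. The nearest was Itgb3 (r = 0.501, adjusted p = 0.0995, and 0.490 without BXD15 and BXD38).

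Lysosomal genes went both ways. Of 22 probes 12 were higher and 4 lower, 54.5% and 18.2% against 27.2% and 30.3% over all probes, with Hexa (0.64 ± 0.0633) and Glb1 (0.64 ± 0.168), which encode glycan-cleaving enzymes, at the top. The protease genes Ctsd (-0.999 ± 0.118, adjusted p = 1.54e-08) and Tpp1 (-0.72 ± 0.162) were lowest. Ctsd was below 0 in 30 of 31 strains and correlated with Tcirg1 at 0.231, and at 0.0718 without BXD15 and BXD38. The sialidase gene Neu1 had the largest correlation of the list (r = -0.499, adjusted p = 0.110, and -0.301 without BXD15 and BXD38), and 0 of the 22 passed.

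For the immune genes, the question was whether markers of the cells in which TIRC7 is known were low as well. Of 17 T cell probes 3 were higher and 9 lower, 17.6% and 52.9% against 27.2% and 30.3% over all probes. The median of their means was -0.14. The interleukin receptor gene Il7r was below 0 in 31 of 31 strains at -0.93 ± 0.0736 (adjusted p = 4.44e-12), from -1.62 in BXD40 to -0.06 in BXD11. The costimulator gene Icos was at -0.71 ± 0.111 and Cd4 at -0.49 ± 0.163. The chains of the T cell receptor complex differed: Cd3d was lower at -0.39 ± 0.0608, while Cd3e at -0.02, Cd3g at 0.09 and Cd247 at 0.09 did not pass. Cd5 was higher at 0.24 (adjusted p = 1.22e-04), and the 2 probes of Cd8a disagreed, at 0.42 and -0.14. More T cell probes were thus lower than higher, with members in both directions. Of 8 B cell probes 1 (12.5%) was higher and 3 (37.5%) lower, and of 20 macrophage probes 5 (25%) and 3 (15%). Of 9 class II probes 1 (11.1%) was higher and 3 (33.3%) lower, and of 18 interferon-induced probes 5 (27.8%) and 3 (16.7%). Ifi204 was the one immune probe with a lower mean than Tcirg1, at -1.68 ± 0.154, and correlated with Tcirg1 at 0.183, which was -0.168 without BXD15 and BXD38.

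None of these 72 immune probes passed for covariation with Tcirg1, where 0.226% of all probes did, and 12 had an unadjusted p below 0.05 (limma), 16.7% against 17.3% of all probes. The largest correlations were 0.464 for Il7r, 0.453 for Icos, 0.368 for Cd5 and 0.355 for Cd8b1 among T cell genes, and 0.485 for the B cell receptor gene Cd79b. Those of macrophage genes were -0.466 for Cd68, 0.426 for C1qa and -0.390 for Mrc1, and that of the interferon-induced Gbp3 was 0.40. Without BXD15 and BXD38 the correlations were 0.290 for Il7r, 0.329 for Icos, 0.306 for Cd5, 0.378 for Cd8b1 and 0.471 for Cd79b. In the same strains they were -0.318 for Cd68, 0.348 for C1qa, -0.363 for Mrc1 and 0.365 for Gbp3. On single arrays Tcirg1 was below the median of the T cell, macrophage, class II and interferon-induced lists in 31 of 31 strains and below that of the B cell list in 30. These counts too follow largely from the choice of Tcirg1 for its low level.

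Kidney cell genes were measured to the same end. Of 11 probes of intercalated cell genes 4 were higher and 3 lower, 36.4% and 27.3%, near the 27.2% and 30.3% of all probes. None of the 11 passed for covariation. The anion exchanger gene Slc4a1 had the largest correlation (r = 0.490, adjusted p = 0.129, and 0.490 without BXD15 and BXD38). Of 7 principal cell probes 3 (42.9%) were higher and 2 (28.6%) lower, and of 13 proximal tubule probes 8 (61.5%) and 1 (7.69%), none of them varying with Tcirg1 by the test. Neuron and glia lists, given because source fields name brain, had 5 (41.7%) and 1 (10%) probes higher and 4 (33.3%) and 3 (30%) lower of 12 and 10.

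Genes next to Tcirg1 in gene order, which lines of this kind tend to inherit together with it, had means between -0.23 and 0.38. The 6 measured genes before it were Gal (0.05), Ppp6r3 (-0.19), Lrp5 (0.07), 1810055G02Rik (-0.04), Kmt5b (-0.01) and Chka (0.09). The 6 after it were Aldh3b1 (-0.23), Unc93b1 (0.38), Acy3 (0.03), Tbx10 (0.17), Nudt8 (0.09) and Doc2g (0.08). By the test of the mean, Unc93b1 and Tbx10 were higher, Ppp6r3 and Aldh3b1 lower, and the other neighbours did not pass. Over all probes 57.5% passed. The correlations of these neighbours with Tcirg1 ran from -0.366 for Nudt8 to 0.310 for 1810055G02Rik, with a median of 0.0213. They ran from -0.169 for Nudt8 to 0.270 for Lrp5 without BXD15 and BXD38. Over the 9 measured genes before Tcirg1 and the 12 after it, 0 of 21 probes passed for covariation (limma), beside 0.226% of all probes.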

How the data were processed

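The authors deposited log2 ratios, 1 column for each of 31 arrays; per the submitters' processing notes they used R 2.0.0 and limma, and the steps are not given in the sources used here. Every column held one and the same set of values in another order, as quantile normalization leaves it. Signal over background is unknown, and the number of arrays limits the precision. Probe names came from the platform table, where 16874 probes have 1 gene name, 134 several and 6032 none, and 16196 probes found their entry in RefSeq (GRCm38.p6), from which only names and gene order were taken.

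Tests were 2-sided fits of all 23040 probes by limma 3.58.1 under R 4.3.3, with Benjamini-Hochberg adjustment at 0.05: the mean over strains, BXD33-42 against BXD1-32, and the slope on the Tcirg1 value. The fits were tested on simulated data with independent normal noise for each probe. Real probes vary together over arrays, so that test does not bear on the counts of probes that vary with Tcirg1. Correlations were permuted 100000 times, for which the smallest p is 1e-05. Arrays were treated as independent. P-values measure the spread between the arrays of different strains. Named genes were Tcirg1, pump genes that passed, the other a subunits, up to 4 members of each other list by correlation, the 6 highest and 6 lowest correlations, 4 spots and 6 genes on each side, and the next probes by mean; other list members are named as those of largest mean, or near 0, after their values were seen. The gene and the lists were chosen with earlier results of these data known. The alternatives were array centring, removal of spot position, leaving out BXD15 and BXD38, array weights, robust eBayes, a filter on the 10% of probes of smallest SD, removal of the first component, strain ranges, and ranks.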

Additional observations from a re-analysis of the deposited data

How the results depend on the processing

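The mean of Tcirg1 stayed between -1.58 and -1.37 in all alternatives tried, and between -1.54 and -1.45 when 1 strain at a time was left out. Counts over all probes and over immune probes stayed within 1.5 times their values. Pump probes called lower numbered 2 instead of 0 with arrays centred, with spot position removed and with array weights. The difference of BXD33-42 from BXD1-32 passed in no alternative and changed sign to -0.012 without BXD15 and BXD38, to -0.067 with array weights and to -0.065 without BXD38 alone, the last chosen after seeing the data. The number of probes that vary with Tcirg1 was the least stable result. It was 652 with spot position removed (47 of the 52 among them), 178 with the first component removed and 176 with the range of strain numbers as a covariate (all 52 among both). It was 7 with ranks, and 0 without BXD15 and BXD38, without BXD15 alone or BXD38 alone (both chosen after seeing the data), and with array weights, where 2590, 3440, 3110 and 3415 probes had an unadjusted p below 0.05 (limma). It was 0 within BXD1-14 (2056 at an unadjusted p below 0.05), 3 within BXD15-32 and 586 within BXD33-42, and 21 of the 586 were among the 52. The cause was not tested. The slopes of the 14 genes followed through the alternatives had the same direction in all 195 fits. In 96 of these, a gene that had passed did not. The shared direction was partly fixed in advance and is a description. All of the 14 except Atp6v0e and Atp6v1b1 were chosen for their correlations with Tcirg1 on these same arrays. Array centring, robust eBayes and the filter on SD left the slopes unchanged. No paired analysis was possible because each strain has 1 array and replicate numbers only name strains.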

Other observations

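Tmem134, which lies 18 protein-coding genes after Tcirg1 in gene order, had a mean of -0.68 and ran from -2.67 in BXD24 to 1.01 in BXD20. Its correlation with Tcirg1 was 0.0453. Cabp2, between them, had the largest correlation with Tcirg1 of the 21 probes nearest to it in gene order (r = -0.580, adjusted p = 0.0803, limma), which was -0.445 without BXD15 and BXD38. Both were chosen for mention after their values were seen.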
